A study of Anolis sagrei with 10 samples.

Results

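The genes described here are secreted antagonists of bone morphogenetic proteins (BMPs): chordin (CHRD), the chordin-like genes CHRDL1 and CHRDL2, noggin (NOG), gremlin (GREM1), follistatin (FST), follistatin-like 1 (FSTL1), twisted gastrulation (TWSG1) and BMPER. They were chosen by symbol, and CHRD leads the list because its difference between the limbs was already known from these libraries. Of 9 listed symbols, 8 were paired with an identifier among the 25920 identifiers counted, and 7 of these had enough counts to enter the comparison of 15595 genes. GREM1 was not analysed here. The exception among the 8 was CHRDL2, which was too low to be tested.

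RNA was sequenced from forelimb buds and from hindlimb buds of the lizard Anolis sagrei, the brown anole. All embryos were wild type and at stage 7. There were 10 libraries, 5 of each limb, and the replicate numbers 1 to 5 were used in both limbs. The protocol collected the buds as pairs of fore- and hindlimbs, but the labels do not say how many embryos went into a library. No treatment or mutation distinguished any library from another.

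BMPs are secreted ligands that bind paired type I and type II receptors on the cell surface and pass the signal on through SMAD proteins. In a limb bud they act on the ectodermal ridge, on cell death between the digits and on cartilage formation. The antagonists bind BMPs, or the related activins, outside the cell and keep them from their receptors, and tolloid proteases release the ligand again by cutting chordin. In mouse and chick limb buds, antagonism of BMPs by gremlin keeps a feedback loop between Sonic hedgehog and ridge FGFs running.

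Total counts ran from 41808148 to 54998469 per library. The forelimb regulator TBX5 lay at 428 to 554 CPM (read counts scaled to a common library size) in forelimb libraries and at no more than 2.87 CPM in hindlimb libraries, so each library matched its limb label. Levels are given in CPM of each library's total after scaling by the trimmed mean of M-values (TMM). No gene lengths were used, so levels are compared between libraries for a gene and never between genes. RNA was taken from whole buds, so a larger number of expressing cells and more RNA per cell cannot be told apart in any difference below. Nothing in the labels says that the 5 numbers are separate embryos, so the errors given describe these libraries. Each SD is a gene's own spread over libraries. Each SE comes from the fit, in which a gene's spread is estimated partly from other genes.

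CHRD (ENSACAG00000002707), which encodes a large BMP-binding protein with several cysteine-rich domains, was the antagonist with the clear limb difference. It stood at 6.69, 9.80, 10.5, 9.61 and 14.5 CPM in forelimb replicates 1 to 5, against 3.43, 2.63, 3.42, 2.16 and 4.87 CPM in hindlimb replicates 1 to 5. The lowest forelimb library lay above the highest hindlimb library, so the limbs did not overlap. These values rested on 292 to 659 counts per forelimb library and 84 to 228 counts per hindlimb library. The mean was 10.2 ± 2.80 CPM in forelimb and 3.30 ± 1.03 CPM in hindlimb (SD, n = 5 each).

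Within a replicate number, forelimb CHRD was 1.95 times hindlimb CHRD in number 1, 3.73 times in number 2, 3.07 times in number 3, 4.46 times in number 4 and 2.98 times in number 5. All 5 numbers thus had the higher level in forelimb, an arrangement found in 7.78% of all genes tested. With the replicate number as a block, the fitted log2 fold change of forelimb over hindlimb was 1.64 ± 0.19 (SE), or 3.11-fold. Because this difference led to the choice of the gene, it is given as a description and no p-value is attached to it.

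Number 1 gave the smallest ratio for CHRD. Forelimb replicate 1 also held the most RNA of a list of 12 blood genes, of which 8 had a symbol and 5 were tested. Their summed level was 146 CPM there and 11.9 to 15.0 CPM in the other forelimb libraries, against 5.98 to 25.2 CPM in hindlimb libraries. Without both libraries of number 1, the log2 fold change of CHRD was 1.81. It was 1.51 without both libraries of number 4, which gave the largest ratio. Hindlimb replicate 4 had the lowest TMM factor, 0.928, and the fewest identifiers with a count, 17132. Chordin is also a product of the notochord in vertebrate embryos, so markers of notochord and floor plate were examined. Of 7 listed, 4 had a symbol. Their summed level was 51.1 to 64.7 CPM in forelimb libraries and 42.4 to 60.5 CPM in hindlimb libraries, higher in forelimb in 4 of 5 numbers. Most of the sum was SPON1, with a log2 fold change of 0.34 ± 0.11 (SE), while SHH and NTN1 had -0.69 ± 0.44 and -0.30 ± 0.18. SHH was at 14.5 CPM in forelimb replicate 1 and 11.2 CPM in hindlimb replicate 1, and at most 4.96 CPM in the other libraries. It also belongs to the limb bud's own loop with ridge FGFs, so SHH from notochord and from the bud cannot be told apart. The notochord gene T was near 0, at 0 to 0.344 CPM in forelimb libraries and 0 to 0.279 CPM in hindlimb libraries. None of the list's 3 tested genes was called by edgeR, DESeq2 or limma voom with the block. Of the 3, SPON1 alone had an unadjusted p under 0.05 in edgeR, as did 13.8% of all genes tested. The part of blood and notochord RNA in the CHRD difference was not tested. Among lists of markers of endothelium, myoblasts, ectoderm, nerve, somites and mesonephros, edgeR calls were found in the mesonephros list. There 2 of 3 tested genes were called, in opposite directions, beside 1.33% of all genes. DESeq2 with the block called 2 genes of that list, 1 of 6 tested endothelium genes and 1 of 7 tested myoblast genes, and limma voom called 1 mesonephros gene. Over all genes, DESeq2 called 532 of 22981 and limma voom 271 of 15595. The 22981 genes include genes under the filter on low counts, which the tested markers had passed. All 6 endothelium genes had a positive log2 fold change, with a median of 0.29. So had all 7 tested ectoderm genes, with a median of 0.05, and all 5 tested blood genes, with a median of 0.72. EMX2 was higher in forelimb, by 0.59 ± 0.09 on the log2 scale (SE; edgeR adjusted p 0.00554, or 0.354 without the block). WT1 was lower, at -2.05 ± 0.45 on that scale (edgeR adjusted p 0.0414, or 0.671 without the block). It lay at 0.177 to 1.40 CPM in forelimb libraries and at 1.18 to 2.62 CPM in hindlimb libraries. OSR1, the remaining tested gene of the mesonephros list, was lower in forelimb in all 5 numbers but not called. Its log2 fold change was -0.22 ± 0.08 (SE; edgeR adjusted p 0.260). PAX2, a gene of that list too low to be tested, was near 0. It lay at 0 to 0.0917 CPM in forelimb libraries and 0 to 0.411 CPM in hindlimb libraries. The part of these genes and lists in the CHRD difference was not tested either.

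**Figure D1:**
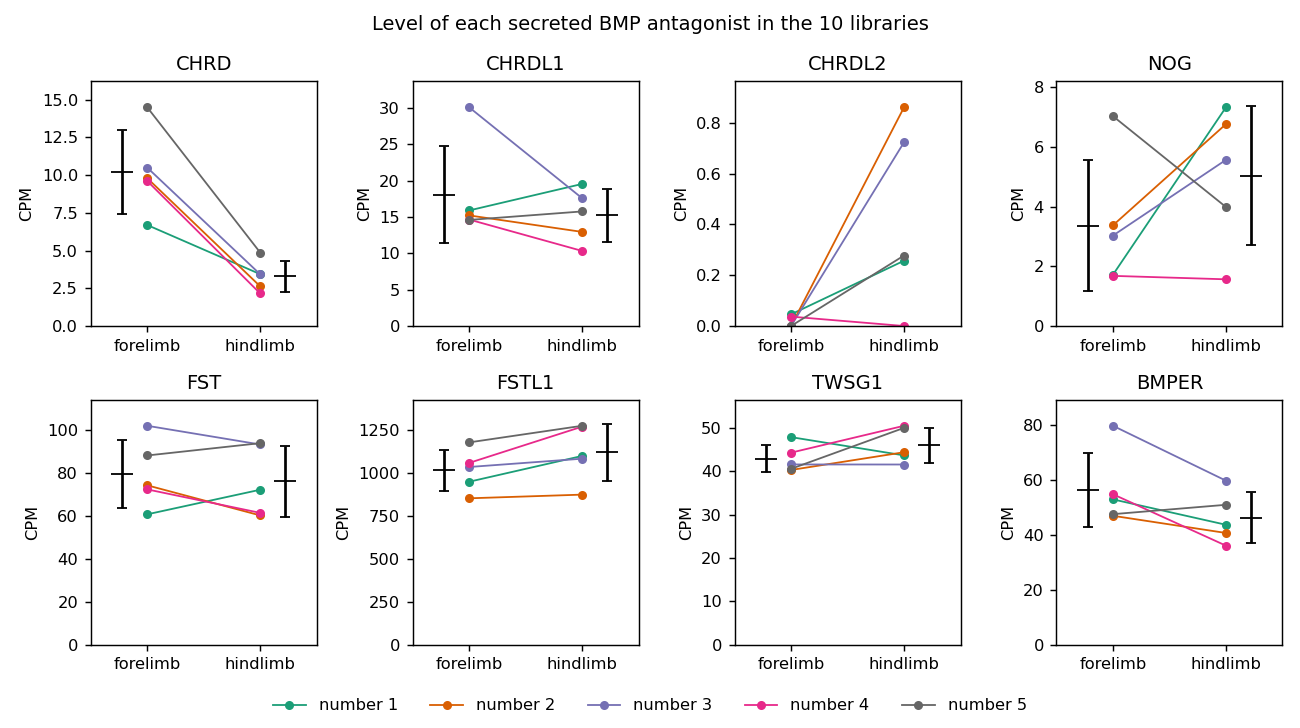
Level of each antagonist in CPM (linear axes from 0; scales differ between panels) in forelimb libraries (left of each panel) and hindlimb libraries (right); a line joins libraries of the same replicate number, and black bars give the mean ± SD of 5 libraries, except for CHRDL2. CHRD is the one panel whose limbs do not overlap, with forelimb libraries at 6.69 to 14.5 CPM and hindlimb libraries at 2.16 to 4.87 CPM.

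Chordin-like 1 (CHRDL1, ENSACAG00000012945), which shares chordin's cysteine-rich repeats, did not follow CHRD. It stood at 15.9, 15.2, 30.1, 14.6 and 14.6 CPM in forelimb replicates 1 to 5, against 19.5, 12.9, 17.6, 10.3 and 15.8 CPM in hindlimb replicates 1 to 5. Forelimb replicate 3 was far above the other forelimb libraries, and the limbs overlapped. CHRDL1 was higher in forelimb in 3 of 5 numbers. Its log2 fold change was 0.22 ± 0.15 (SE), and 0.08 without number 3.

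CHRDL2 (ENSACAG00000014221), the third gene of the chordin type, was barely detected. It had 2, 0, 0, 2 and 0 counts in forelimb replicates 1 to 5, against 11, 37, 34, 0 and 13 counts in hindlimb replicates 1 to 5. All hindlimb libraries but replicate 4 had more counts than any forelimb library. These counts were under the filter on low counts, and no fold change is given.

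NOG (ENSACAG00000009118), a small protein that covers both receptor-binding faces of a BMP, varied most in its limb difference. It stood at 1.72, 3.38, 3.03, 1.68 and 7.04 CPM in forelimb replicates 1 to 5, against 7.34, 6.77, 5.57, 1.57 and 3.99 CPM in hindlimb replicates 1 to 5. The limbs overlapped, and the direction differed between numbers. Forelimb NOG was 0.234 times hindlimb NOG in number 1 and 1.76 times in number 5. The fitted log2 fold change was -0.61 ± 0.37 (SE). It was -0.24 without number 1 and -0.98 without number 5, so its size rested on which numbers were included.

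The forelimb library with the most NOG, replicate 5, also held the most RNA of a list of limb bud mesenchyme genes. Of 9 such genes listed, 4 had a symbol and were tested. Their summed level ran from 136 to 261 CPM in forelimb libraries, with 261 CPM in replicate 5, and from 134 to 222 CPM in hindlimb libraries. None of these 4 genes was called between the limbs by edgeR, DESeq2 or limma voom with the block, and 0 had an unadjusted p under 0.05 in edgeR. Their part in the NOG values was not tested.

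FST (ENSACAG00000015537), which binds activins tightly and some BMPs more weakly, had nearly the same range in both limbs. It ran from 60.6 to 102 CPM with a median of 74.2 CPM in forelimb libraries, against 60.1 to 93.8 CPM with a median of 72.1 CPM in hindlimb libraries. Replicate 3 was the highest forelimb library, replicates 5 and 3 were the highest hindlimb libraries, and the limbs overlapped. The log2 fold change was 0.07 ± 0.09 (SE), with forelimb higher in 3 of 5 numbers.

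FSTL1 (ENSACAG00000011543), a secreted glycoprotein with a follistatin domain, had the most counts of the 8 genes. It stood at 947, 851, 1033, 1057 and 1176 CPM in forelimb replicates 1 to 5, against 1098, 872, 1082, 1268 and 1273 CPM in hindlimb replicates 1 to 5. The limbs overlapped. Hindlimb was nevertheless higher in all 5 numbers, as in 7.07% of all genes tested. The gene was not called, at a log2 fold change of -0.14 ± 0.06 (SE).

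TWSG1 (ENSACAG00000005647), which binds both BMPs and chordin and can either strengthen or relieve the block, was the steadiest antagonist. It ran from 40.3 to 47.9 CPM in forelimb libraries and from 41.6 to 50.6 CPM in hindlimb libraries, with a log2 fold change of -0.10 ± 0.08 (SE). Its SD over the 10 libraries was 0.12 on the log2 scale, while the median gene had 0.32.

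BMPER (ENSACAG00000009181), a protein with chordin-type repeats that binds BMPs and can raise or lower their signal, stood at 52.9, 46.9, 79.8, 54.8 and 47.5 CPM in forelimb replicates 1 to 5. Hindlimb replicates 1 to 5 had 43.7, 40.7, 59.7, 36.1 and 50.9 CPM. Number 3 was the highest of each limb, and the limbs overlapped. Forelimb was higher in 4 of 5 numbers. The log2 fold change was 0.28 ± 0.10 (SE), and the gene was not called.

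**Figure D2:**
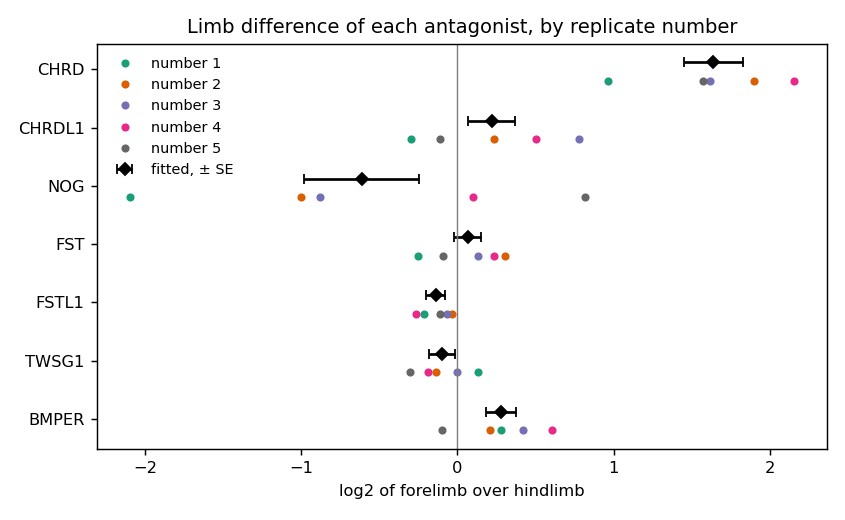
Log2 of forelimb over hindlimb CPM for each tested antagonist, with a coloured point for each replicate number and a black diamond for the fitted value ± SE of the fit with the replicate block. CHRD lies to the right of 0 in every number, with a fitted value of 1.64, while NOG spreads over both sides.

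Of the 7 tested antagonists, 1 was called, at a Benjamini-Hochberg adjusted p under 0.05 over all genes in the fit with the block, and that was CHRD. The same rule called 1.33% of all genes, 0.705% as higher in forelimb and 0.628% as higher in hindlimb. The limbs did not overlap in the same single member, and in 1.19% of all genes. CHRD was listed for its limb difference in these libraries, so its calls here are descriptions. The median log2 fold change of the 7 was 0.07, against 0.00 over all genes tested. Without the block, CHRD was again the single member called, where 0.199% of all genes were. In fits without the block that also left out a library, CHRD kept its call in 3 of 10. These were the fits without forelimb replicate 1, hindlimb replicate 4 or hindlimb replicate 5. In the other 7 no member was called. The log2 fold change of CHRD was 1.47 to 1.81 over the 10 fits. No share over all genes is given for these fits, so their counts of calls have no background.

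The authors' deposited table gave the same contrast with smaller fold changes. The file headers do not say whether those values were made smaller for genes with few counts. CHRDL2, with a mean of normalised counts of 9.79, had an SE of 0.07 there, while FSTL1, with 47396, had 0.11. The sizes are therefore not on a known common scale with those of the fits here. In the authors' deposited table the log2 fold change of CHRD was 0.93 ± 0.15 (SE). The authors' deposited table gave values for the other 7 antagonists between -0.19 for CHRDL2 and 0.21 for BMPER, and none of these 7 had an adjusted p under 0.05 there (CHRDL2 was given none), as 0.621% of the genes with an adjusted p did in the authors' deposited table (0.274% higher in forelimb and 0.347% higher in hindlimb).

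The antagonists also differed in where their variation lay. For each gene, the sum of squares of log2 CPM over the 10 libraries was divided into a share between limbs, a share between replicate numbers and a remainder. There are more replicate numbers than limbs, so noise alone would put more of the sum of squares between numbers than between limbs. The shares of a gene are therefore read beside the median over all genes tested. For CHRD, 82.6% lay between limbs and 12.5% between numbers. For FST, 83.9% lay between numbers and 1.47% between limbs, and for FSTL1 the shares were 82.0% between numbers and 12.9% between limbs.

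The median over all tested genes was 65.9% between numbers and 5.56% between limbs. CHRDL1 and BMPER were near that median in the share between numbers, with 65.5% and 63.2%. Between limbs they had 8.31% and 21.7%, while TWSG1 had 18.9% and NOG 13.2%. TWSG1, with little variation to divide, had 43.8% in the remainder, and NOG had 35.2% there. The limb share of CHRD follows from the contrast for which it was chosen.

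**Figure D3:**
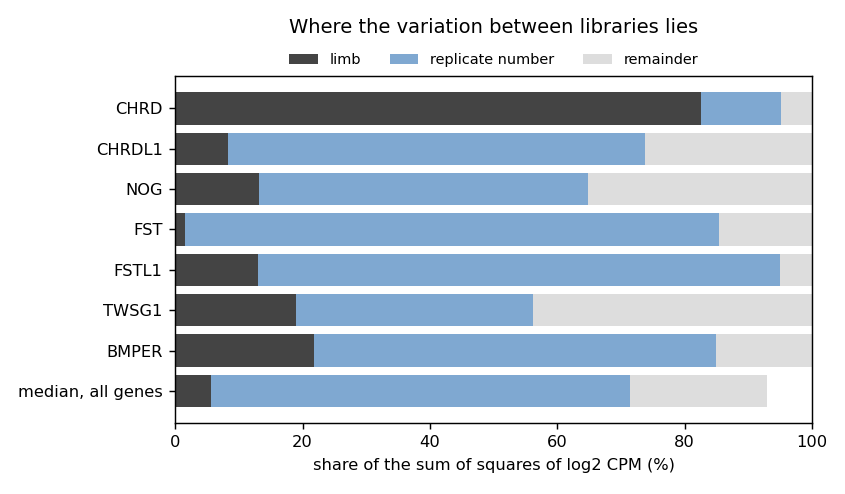
Share of the sum of squares of log2 CPM (horizontal axis, in %) that lies between limbs, between replicate numbers and in the remainder, for each tested antagonist and, in the lowest bar, the median of each share over all genes tested, which need not add to 100%. CHRD has 82.6% between limbs, and FST and FSTL1 have over 80% between numbers.

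CHRDL1 and BMPER were both highest in replicate 3 among forelimb libraries and both lowest in replicate 4 among hindlimb libraries. A list of 8 cartilage genes, of which 6 had a symbol and were tested, followed the same order at these ends when summed. Their summed level, mostly from the cartilage collagen gene COL2A1, was 1549 CPM in forelimb replicate 3 and 914 to 1209 CPM in the other forelimb libraries. In hindlimb it was 590 CPM in replicate 4 and 1241 to 1632 CPM in the other libraries. None of the 6 cartilage genes was called between the limbs by edgeR, DESeq2 or limma voom with the block, and 2 had an unadjusted p under 0.05 in edgeR. Not every gene of the list followed its sum: SOX5 and SOX6 were highest in forelimb replicate 1, and HAPLN1 was lowest of the hindlimb libraries in replicate 1. These ends were not particular to cartilage. The summed endothelium and nerve lists were also highest of the forelimb libraries in replicate 3, at 120 and 39.6 CPM. They were lowest of the hindlimb libraries in replicate 4, at 42.6 and 9.17 CPM. The nerve sum was mostly SOX10. Here too some genes departed from the sum. TIE1 and ELAVL3 were highest in forelimb replicate 1 and TEK in forelimb replicate 2, and KDR was lowest in hindlimb replicate 5. The part of these lists in the CHRDL1 and BMPER values was not tested.

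The rest of the pathway was examined in 8 lists of 87 distinct symbols, of which 63 were paired with an identifier and 59 were tested. In the fit with the block 4 of the 59, or 6.78%, were called, beside 1.33% of all genes. The median log2 fold change of the 59 was 0.03. The called genes were the chordin-cutting protease TLL1, the ligands GDF5 and BMP5 and the follistatin-domain gene FSTL4. Without the block none of the 59 was called by edgeR. In that fit 10 had an unadjusted p under 0.05, but the share over all genes was not computed, so this count has no background. With the block 17 of the 59 had an unadjusted p under 0.05, beside 13.8% of all genes tested. That share is the background for the counts of unadjusted p with the block in the lists below. The calls in these lists therefore rest on comparing libraries of the same number. Over all genes, DESeq2 with the block called 532 of 22981 and limma voom with the block 271 of 15595. With no filter on low counts, edgeR called 697 of 22981. These counts are the background for the calls of those fits in the lists below. The 22981 genes include genes under the filter on low counts, which the 59 had passed, so that background is not like for like.

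TLL1 (ENSACAG00000000252), a tolloid-type protease that cuts chordin, was lower in forelimb. It stood at 35.8, 41.4, 54.0, 38.3 and 32.1 CPM in forelimb replicates 1 to 5, against 53.7, 61.4, 74.3, 55.1 and 62.5 CPM in hindlimb replicates 1 to 5. Only forelimb replicate 3 reached the range of the hindlimb libraries, and forelimb was lower in all 5 numbers. Fitted with the block, TLL1 had a log2 fold change of -0.62 ± 0.09 (SE). The edgeR adjusted p was 0.00260, and 0.236 without the block. It passed the threshold without each number in turn, with adjusted p of 0.00247 to 0.0293.

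BMP1, the other tested protease of this type, is known for processing procollagen as well as chordin. It averaged 162 ± 15.0 CPM in forelimb and 137 ± 16.1 CPM in hindlimb (SD, n = 5 each), higher in forelimb in all 5 numbers. Its log2 fold change of 0.25 ± 0.07 (SE) had an edgeR adjusted p of 0.119, and the gene was called by DESeq2 with the block and by edgeR with no filter on low counts.

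GDF5 (ENSACAG00000005716), a BMP-type ligand of developing joints, was also lower in forelimb. It stood at 160, 241, 305, 268 and 367 CPM in forelimb replicates 1 to 5, against 229, 329, 429, 401 and 495 CPM in hindlimb replicates 1 to 5. The limbs overlapped widely, but within a number forelimb was always the lower, at 0.670 to 0.742 times hindlimb. GDF5 thus had a log2 fold change of -0.49 ± 0.06 (SE). The edgeR adjusted p was 0.000696 with the block and 0.99997 without it. Without each number in turn the adjusted p was 0.00167 to 0.0142.

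BMP5 (ENSACAG00000016825), a ligand of the BMP7 type with a role in the mouse skeleton, was the single called pathway gene higher in forelimb. It stood at 28.1, 34.9, 45.2, 28.7 and 30.7 CPM in forelimb replicates 1 to 5, against 22.3, 21.8, 28.2, 18.3 and 23.3 CPM in hindlimb replicates 1 to 5. Forelimb was higher in all 5 numbers, by 1.26 to 1.60 times. In the fit BMP5 had a log2 fold change of 0.55 ± 0.10 (SE). The edgeR adjusted p was 0.0133 with the block and 0.484 without it. The call was lost without number 2, 3 or 4, with adjusted p of 0.100, 0.114 and 0.0656.

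FSTL4 (ENSACAG00000011477) averaged 64.5 ± 9.94 CPM in forelimb and 85.1 ± 11.2 CPM in hindlimb (SD, n = 5 each), lower in forelimb in all 5 numbers. Fitted with the block, FSTL4 had a log2 fold change of -0.40 ± 0.08 (SE). Its edgeR adjusted p was 0.0199, and 0.607 without the block. Its call was also lost without number 2, 3 or 4, with adjusted p of 0.133, 0.113 and 0.0757. In the authors' deposited table, TLL1 was the one of these 4 genes with an adjusted p under 0.05.

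**Figure D4:**
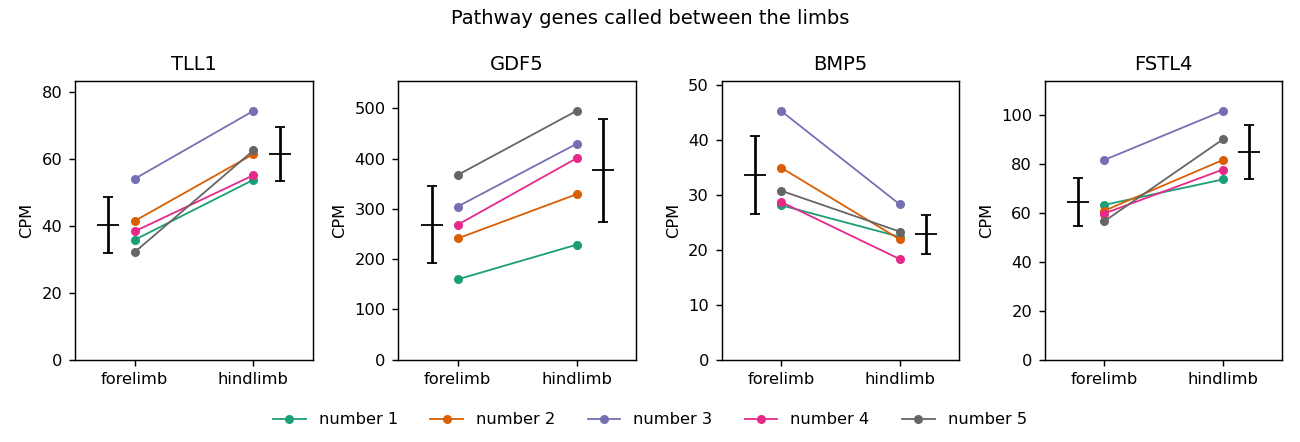
Levels in CPM (linear axes from 0) of the 4 called pathway genes in forelimb libraries (left) and hindlimb libraries (right), with a line for each replicate number and black bars for the mean ± SD of 5 libraries. Every line of a gene runs in the same direction, while the limbs overlap in TLL1, GDF5, BMP5 and FSTL4 alike.

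Among the 9 tested BMP and GDF ligands, GDF5 and BMP5 were thus called in opposite directions, and 3 of the 9 had a positive log2 fold change. BMP2 and BMP4, the ligands most studied in limb buds, had log2 fold changes of -0.48 ± 0.12 and -0.30 ± 0.09 (SE), with edgeR adjusted p of 0.0648 and 0.122. Both were called by DESeq2 with the block and by edgeR with no filter on low counts. Of 6 tested genes listed as other antagonists, FSTL4 was the single call, and 1 of the 6 had a positive log2 fold change. Their median was -0.10.

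None of the 5 tested activin-type ligands was called by edgeR, while 2 had an unadjusted p under 0.05 and DESeq2 and limma voom with the block called 1 each. Their median log2 fold change was 0.18. Myostatin (MSTN), a brake on muscle growth, had a log2 fold change of 0.21 ± 0.07 (SE), and the activin subunit INHBA had 0.05 ± 0.14. INHBB, the gene called by DESeq2 and limma voom, and by edgeR with no filter on low counts, and named here after its values were seen, had -1.27 ± 0.30 and an edgeR adjusted p of 0.0599.

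None of the 11 tested receptors and co-receptors was called by edgeR or limma voom, while 4 had an unadjusted p under 0.05. DESeq2 with the block and edgeR with no filter on low counts called 1, the co-receptor gene RGMA, named after its values were seen. The log2 fold change of NEO1, a receptor for RGM proteins, was 0.02 ± 0.12 (SE). That of the type II receptor ACVR2A was -0.01 ± 0.07.

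None of the 10 tested SMADs and SMAD ubiquitin ligases was called by edgeR, DESeq2 or limma voom with the block, and none had an unadjusted p under 0.05 in edgeR. Their log2 fold changes ran from -0.17 to 0.09. SMAD1, which carries the BMP signal, averaged 139 ± 7.94 CPM in forelimb against 137 ± 7.13 CPM in hindlimb (SD, n = 5 each). SMAD4, the partner shared by BMP and activin SMADs, had a log2 fold change of 0.09 ± 0.07 (SE).

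Of 8 tested genes commonly induced by BMPs, none was called by edgeR, DESeq2 or limma voom with the block, and 1 had an unadjusted p under 0.05 in edgeR. Their median log2 fold change was -0.08. ID2, an inhibitor of helix-loop-helix factors, had a log2 fold change of 0.10 ± 0.07 (SE), and the homeobox gene MSX2 had 0.27 ± 0.08. Of 10 tested genes of the Sonic hedgehog and FGF loop, none was called by those 3 methods, and 2 had an unadjusted p under 0.05 in edgeR. The hedgehog effectors GLI3 and GLI2 had log2 fold changes of 0.28 ± 0.08 and -0.0037 ± 0.09 (SE). With no filter on low counts, edgeR called MSX2 and GLI3.

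**Figure D5:**
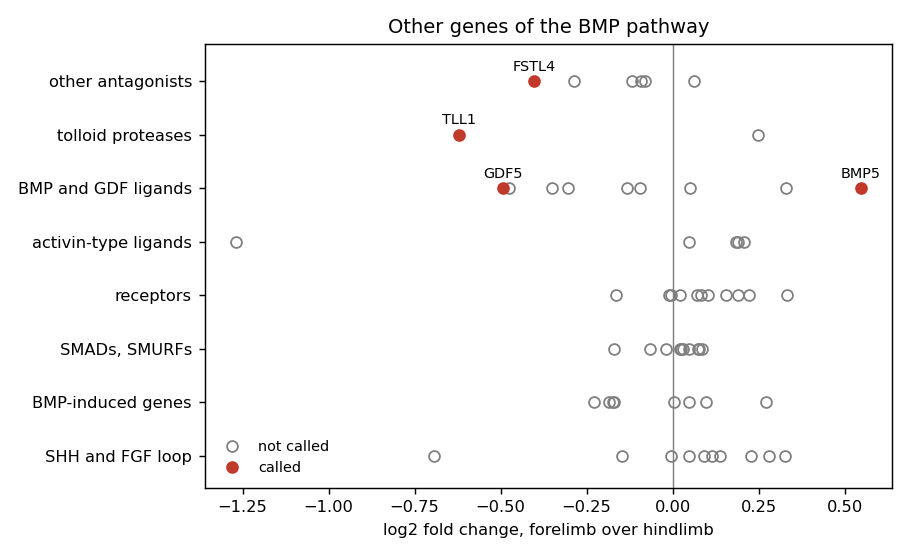
Log2 fold change of forelimb over hindlimb (horizontal axis) for every tested gene of the 8 pathway lists, 1 row per list; filled points passed an adjusted p of 0.05 in the fit with the block and open points did not. Filled points are TLL1, GDF5 and FSTL4 to the left of 0 and BMP5 to the right.

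The genes whose levels most resembled those of CHRD were sought among 9472 genes with a symbol and a mean of at least 1 CPM, by Pearson correlation of log2 CPM over the 10 libraries. These libraries share replicate numbers and limbs, so the correlations are descriptions. CHRD was chosen for its limb difference, so limb differences in genes found this way follow from the search. The closest were the carbonic anhydrase-related gene CA11 (r = 0.944), the homeobox gene HOXA2 (r = 0.928), the kinase gene STK26 (r = 0.928), the Notch ligand JAG2 (r = 0.915) and the WNT ligand WNT3 (r = 0.912).

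CA11 averaged 12.1 ± 1.83 CPM in forelimb against 6.02 ± 1.41 CPM in hindlimb, and HOXA2 averaged 13.7 ± 2.01 CPM in forelimb against 5.68 ± 0.808 CPM in hindlimb (SD, n = 5 each). JAG2 alone of these genes overlapped between the limbs, while 1.19% of all genes tested did not overlap. STK26 differed little, at 68.1 to 70.5 CPM in forelimb libraries and 62.3 to 66.8 CPM in hindlimb libraries. Its log2 fold change was 0.09 ± 0.07 (SE), beside 1.02 ± 0.17 for CA11 and 1.27 ± 0.15 for HOXA2. JAG2 had 0.19 ± 0.08 and WNT3 had 0.31 ± 0.11, with edgeR adjusted p of 0.270 and 0.222.

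The same search for the other antagonists was added after their values were seen. It gave the growth factor gene VEGFA for CHRDL1 (r = 0.953), TBC1D20 for NOG (r = 0.907) and the integrin gene ITGA6 for FST (r = 0.970). For FSTL1, TWSG1 and BMPER the closest genes were GYPC (r = 0.955), AP4S1 (r = 0.933) and DLK1 (r = 0.934).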

How the data were processed

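RNA from 5 forelimb and 5 hindlimb libraries was made with a stranded mRNA kit, per the labels' protocols, and handled with FastQC, STAR, featureCounts and DESeq2, per the submitters' processing notes. Versions, build, annotation, strand setting and the treatment of shared reads are not given in the sources used here. The deposited tables of the authors hold raw read counts per identifier, 1 library each. The authors also deposited their own limb comparison, with columns for the signal (mean of normalised counts), the log2 fold change of forelimb over hindlimb and its SE, a score (the test statistic) and p-values before and after adjustment, per the file headers. Its gene symbols, in capitals, were joined by identifier and were paired with 12476 of the 25920 identifiers.

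Counts were fitted in R 4.3.3 with edgeR 4.0.16 (quasi-likelihood test, robust dispersions, TMM factors 0.928 to 1.03, default filter with minimum count 10 and minimum total 15). The model held the replicate number as a block and the limb, and Benjamini-Hochberg adjustment ran over 15595 genes with a threshold of 0.05. Each SE is the fold change divided by the root of its F statistic. Correlations and sums of squares used log2 CPM with a prior count of 2.

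The block was used because the limbs were to be compared by replicate number and the protocol collected pairs of fore- and hindlimb buds. Libraries of the same number also deviated together. Over 9747 genes whose mean reached 8 CPM, deviations from the limb mean correlated at 0.51 to 0.75 between libraries of the same number and at -0.41 to 0.12 between different numbers. Deviations from a limb mean cancel out within the limb, which by itself lowers the correlations between different numbers. The labels do not say what a number marks. Libraries of the same limb differed by more than sampling noise (chi-square per degree of freedom of at least 34.3). The procedure was tested on simulated data.

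The members and the gene lists were chosen with earlier results of these data known. Named genes are each member with a row, each pathway gene past the threshold, the 2 genes with the highest mean CPM of each list with no such gene, and the 5 genes most like CHRD. BMP1, BMP2, BMP4, INHBB, RGMA, EMX2, WT1, OSR1, PAX2, SPON1, SHH and NTN1 were named beside them after their values were seen. So were SOX5, SOX6, HAPLN1, KDR, TIE1, TEK, ELAVL3 and SOX10. Alternatives were no block, DESeq2 1.42.0 and limma 3.58.1 (voom) with the block, relative log expression (RLE) size factors, no filter on low counts, leaving out each number, and, added after the data were seen, leaving out each library without the block.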

Additional observations from a re-analysis of the deposited data

Results flagged for a closer look

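In each limb, the highest and the lowest of 5 libraries were compared with the nearest of the others for 18 sets of values, namely the total counts and the levels of the 8 antagonists with an identifier. The gap was above 0.71 of the range in 3 sets, where about 1 set in 20 passes by chance. Forelimb replicate 3 had 30.1 CPM of CHRDL1, while the other forelimb libraries had 14.6 to 15.9 CPM. The same library had 79.8 CPM of BMPER, while the other forelimb libraries had 46.9 to 54.8 CPM. Forelimb replicate 4 had 54998469 counts in all, while the other forelimb libraries had 42151036 to 45608067.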

How the results depend on the processing

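Libraries of the same number paired by the check of their deviations, and the replicate block mattered for the pathway genes. Without the block 31 genes were called, against 208 with it, and 0 of 59 pathway genes by edgeR, against 4, while CHRD was called either way. DESeq2 with the block called 532 of 22981 genes, with 9 pathway genes among them. The edgeR fit with no filter on low counts called 697 of 22981, with 11 pathway genes among them. Leaving out each number in turn gave 58 to 330 calls (58 without number 2, 69 without number 3, 97 without number 4 and 330 without number 1) and 2 to 6 pathway calls. TLL1 and GDF5 were called in each of those 5 fits. The cause of these changes was not tested. CHRD was the single member called under these fits and under RLE factors and limma voom with the block, 10 in all, with log2 fold changes of 1.51 to 1.81. Since CHRD was listed for this difference in the same libraries, its calls are descriptions and no independent support. In the fits without the block that left out a library, 0 to 1 members were called, with no share over all genes given. The 7 tested members and the 4 called pathway genes kept the sign of their log2 fold change under the same 10 fits. RLE factors and a prior count of 0.5 left the median share between replicate numbers over the members at 62.8% and 63.2%, against 63.2%. CHRDL2 had too few counts to be tested, with at most 37 in a library.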
